A study of Mus musculus with 2 samples.

Results

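At 1 to 10 kb from the estrogen receptor alpha (ERα) peaks that the caller MACS found in mouse mammary gland, a second caller, CCAT, listed 557 further regions. They were 1.07% of the 52243 distinct CCAT regions on chromosomes 1 to 19 (54670 on all chromosomes). A region was a member if it overlapped none of the 856 MACS peaks on these chromosomes and if the nearest peak lay 1 to 10 kb away, measured from edge to edge. The false discovery rate (FDR) that CCAT gave was not used to choose them. The positions of both lists were, and the callers worked on the same library, so every value below describes the lists.

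ERα is a nuclear receptor that binds DNA when it carries estrogen, and in the mammary gland of pubertal females it drives the growth of the ducts. It binds mostly at enhancers, through its own response element or through other bound factors, and its sites often lie in groups within wider stretches of open chromatin. Regions listed beside a peak show what else CCAT called near it, and whether they lie in open chromatin was not tested.

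The study had 1 ERα ChIP library, from mammary gland pads pooled from 6 mice, and 1 library of whole cell extract as the control. The mice were aged 5 to 6 weeks and had been backcrossed to C57BL/6J, a common inbred strain, and no treatment is named. Whole gland pads hold fat, vessels and other stroma beside the epithelium, and the lists hold no expression values with which to check the tissue. With 1 library in each group there is no replicate error, and no difference was tested. The intervals below cover counting error alone and take regions as independent, although neighbouring regions are not. The lists give no reads, so the depth behind each region is unknown. Positions are those of the mouse assembly mm9, counted from base 1. No mm9 sequence or annotation was used here, so the regions are named by position and neither their sequence nor their genes are given.

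The flanking regions were weak by CCAT's own measure. Of the 557, 550 had an FDR of 1 and 7 a lower one, which is 1.26% (95% Wilson interval 0.610 to 2.57%). A position listed more than once was taken at its first line, where its FDR is lowest. Taken at the last line, 5 of the 557 were below 1 (0.898%). The shares of the other zones are also those at the first line. Over all CCAT regions of chromosomes 1 to 19 the share below 1 was 1.61%, most of it from regions on a MACS peak, and over the regions on no peak it was 0.356%. The share of the flanking regions was thus near that of the whole list and above that of the regions off the peaks. At 10 to 20 kb the share was 0.536% (0.182 to 1.56%), at 20 to 50 kb 1.11% and at 50 to 100 kb 1.06%. The interval at 10 to 20 kb, from 3 regions, overlaps that of the flanks. The other 2 values lie within the interval of the flanks. Beyond 100 kb it was 0.283% (0.238 to 0.335%), below that interval. An FDR of at most 5% was reached by 0 of 557 flanking regions, which allows a share of up to 0.539% if 3 counts are taken as the upper limit. The background at this limit was 0.454% of all regions and 0.00583% of those on no peak.

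The 7 flanking regions with an FDR below 1 at their first line were of unlike kinds. The lowest FDR, 0.282, was that of a region of 2100 bp on chromosome 8 (19919951 to 19922050). It lay 1971 bp from a MACS peak of 3252 bp with a score of 1676.27, where the MACS score is -10 times the log10 of the p-value. Next came a region on chromosome 1 (85268051 to 85269600) with an FDR of 0.298, which lay 7944 bp from a weak peak with a score of 77.48. A region of 1200 bp on chromosome 13 (30900701 to 30901900) had an FDR of 0.531 and lay 3988 bp from a strong peak, with a score of 2358.67. The same FDR was given to a region of 1150 bp on chromosome 2 (170137951 to 170139100), 8451 bp from a peak with a score of 99.61. On chromosome 9 a region of 1150 bp (8972351 to 8973500) had an FDR of 0.689 and lay 1574 bp from a peak with a score of 568.25. The remaining 2, on chromosomes 4 and 6, were the widest flanking regions of all. An FDR below 1 was therefore found beside peaks at both ends of the MACS score.

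Flanking regions had the width of ordinary CCAT regions rather than that of regions on a peak. Their median width was 750 bp, with an interquartile range of 650 to 950 bp, against a median of 1200 bp (1150 to 1300 bp) for the 781 CCAT regions on a MACS peak. Of the 557, 535 were narrower than the widest CCAT region on their own nearest peak. Beyond 100 kb the median was 700 bp (600 to 850 bp). Against these, the lower quartile and the median of the flanking regions were higher by 50 bp, and the upper part of the distribution differed more. A width of 1000 bp or more was found for 132 flanking regions (23.7%, 95% Wilson interval 20.4 to 27.4%), for 19.8% at 10 to 20 kb (16.7 to 23.3%) and for 11.7% beyond 100 kb. All CCAT positions fall on a grid of 50 bp, which limits how finely widths can be compared, and 72 flanking regions had the lowest width in the list, 550 bp.

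**Figure D1:**
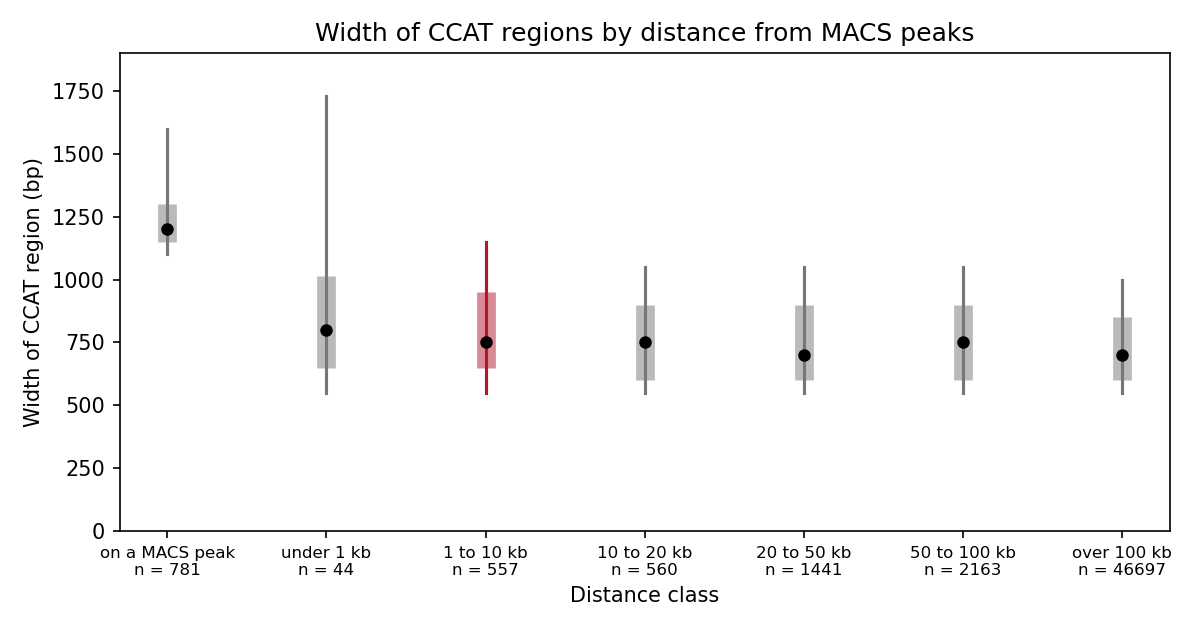
Width of CCAT regions (bp) in classes of distance to the nearest MACS peak. Points are medians, thick bars interquartile ranges and thin lines the range from the 10th to the 90th percentile. Regions on a peak have a median of 1200 bp, and the 557 at 1 to 10 kb, in red, have a median of 750 bp, close to those farther away.

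The widest flanking region was on chromosome 4 (3006901 to 3013550), with 6650 bp and an FDR of 0.689, close to where the called positions of that chromosome begin. The second, on chromosome 6 (47622251 to 47628350), had 6100 bp and an FDR of 0.533. Those that followed all had an FDR of 1. They were a region of 4850 bp on chromosome 1 (85253701 to 85258550), 1 of 4150 bp on chromosome 17 (56242851 to 56247000) and 1 of 3750 bp on chromosome 1 (87479151 to 87482900). A region of 3250 bp on chromosome 18 (3003701 to 3006950) completed the 6 widest, and its start coordinate is close to that of the widest. The nearest MACS peaks of these 6 were all weak, with scores between 75.13 and 131.91, against a median of 174.2 over all 856 peaks. In these cases the CCAT region was at least 6.00 times as wide as the MACS peak beside it.

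CCAT regions were more closely spaced near MACS peaks than far from them, but over a much wider zone than 10 kb. The flanks from 1 to 10 kb amounted to 14.1 Mb and held 39.6 regions per Mb (95% Poisson interval 36.4 to 43.0). Beyond 100 kb the density was 20.7 per Mb (20.5 to 20.9), so the flanks held 1.91 times as many (1.76 to 2.08). From 10 to 20 kb the density was 37.0 per Mb (34.0 to 40.2), and the ratio of the flanks to this zone was 1.07 (0.951 to 1.21), an interval that includes 1. Densities of 32.9 per Mb (31.2 to 34.6) at 20 to 50 kb and of 31.0 (29.7 to 32.3) at 50 to 100 kb still lay above that beyond 100 kb. Within the flanks, the density was 42.2 per Mb at 1 to 4 kb, 39.9 at 4 to 7 kb and 36.7 at 7 to 10 kb, with intervals that overlap. Sequence to which reads cannot be assigned was not left out of these lengths, and its part in the lower density far from peaks was not tested.

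**Figure D2:**
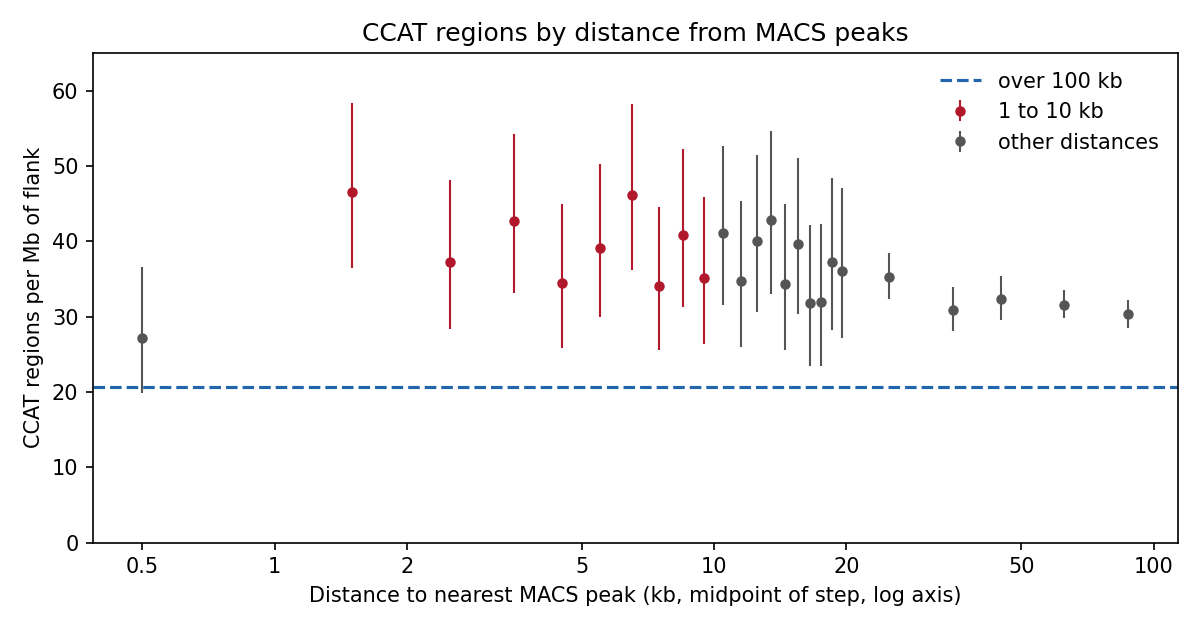
CCAT regions per Mb of flank (vertical axis) by distance to the nearest MACS peak (kb, log axis), in steps of 1 kb up to 20 kb and wider steps beyond. Bars are 95% Poisson intervals, the steps from 1 to 10 kb are red, and the dashed line is the density beyond 100 kb. The densities from 1 to 20 kb lie between 31.8 and 46.5 per Mb, all above the line at 20.7.

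The regions were spread over the whole of the flanks. The counts per 1 kb step ran from 53 to 74 regions, with the highest count at 1 to 2 kb and the next highest, 72, at 6 to 7 kb. The median distance was 5421 bp, with an interquartile range of 3109 to 7611 bp. On the side of lower coordinates lay 295 regions and on the other 262, a share of 53.0% (95% Wilson interval 48.8 to 57.1%). The nearest flanking region, of 800 bp on chromosome 11 (71701651 to 71702450), was 1012 bp from its peak, and the next, of 1150 bp on chromosome 14 (67340551 to 67341700), was 1019 bp away. Regions at 992 and 978 bp, on chromosomes 2 and 17, fell just short of the limit. The others of the 6 nearest lay on chromosome 7 (71043101 to 71043750, 1031 bp away), chromosome 1 (71127101 to 71127750, 1039 bp), chromosome 11 (33449551 to 33450100, 1059 bp) and chromosome 16 (30827601 to 30828550, 1063 bp). All 6 had an FDR of 1, and their widths, between 550 and 1150 bp, were those of the list at large. At the far limit, regions at 9958 and 9960 bp were members, and regions at 10003 and 10032 bp were not.

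The flanking regions were also set apart from the CCAT region that covers the peak itself. Each of the 370 nearest peaks was overlapped by a CCAT region, whose median width was 1250 bp where that of the peaks was 327 bp. The gap between this region and the flanking one had a median of 4800 bp and a lowest value of 150 bp, and was under 1000 bp for 44 of 557. This gap largely follows from the distance that chose the regions.

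The deposited order of the CCAT list allowed a finer look at regions that share an FDR of 1. The FDR never decreases along the list. Among the 174 regions on a peak at the lowest FDR, the line number and the MACS score had a Spearman rho of -0.884, a description across regions of the same reads. Of the 124 regions on a peak with an FDR of 1, 117 stood in the first of 10 equal parts (deciles) into which the regions with that FDR were divided by line. The order was therefore read as one of strength, at least at its head, although the sources used here do not state it. Of the 550 flanking regions with an FDR of 1, 98 stood in the first decile (17.8%, 95% Wilson interval 14.8 to 21.2%), against 9.49% (9.23 to 9.76%) of those beyond 100 kb. At 10 to 20 kb the share was 14.4% (11.7 to 17.5%), at 20 to 50 kb 12% (10.4 to 13.8%) and at 50 to 100 kb 11.4% (10.2 to 12.9%). Of the off-peak regions under 1 kb, 10 of 42 stood there (23.8%, 13.5 to 38.5%). From 1 kb outward the share was lower in each wider zone, and the interval of the flanks overlaps those of both adjoining zones.

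**Figure D3:**
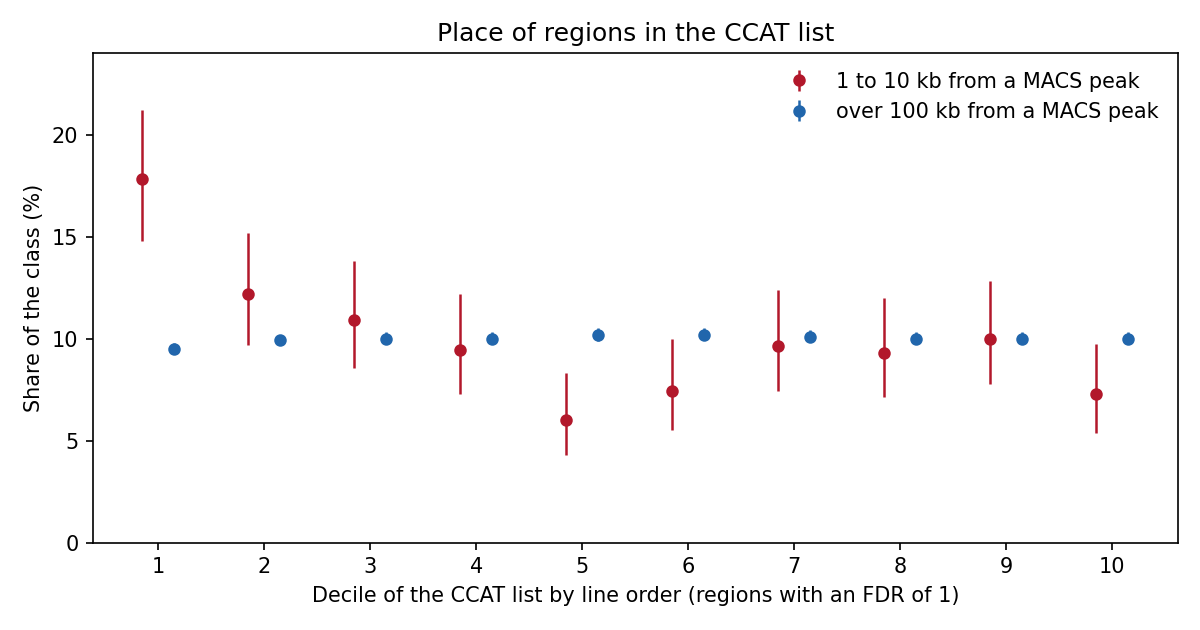
Share of regions with an FDR of 1 (%) in each decile of the CCAT list by line order, for regions 1 to 10 kb from a MACS peak (red, n = 550) and over 100 kb away (blue, n = 46565), with 95% Wilson intervals. The red share is 17.8% in the first decile and 6% in the fifth, where the blue shares are 9.49% and 10.2%. Beyond the head of the list the order may not be one of strength.

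Early place in the list and density went together. Counting the first decile alone, the flanks held 6.97 regions per Mb (95% Poisson interval 5.66 to 8.49) and the genome beyond 100 kb 1.96, a ratio of 3.56 (2.88 to 4.35). Against the adjoining zone from 10 to 20 kb the ratio was 1.32 (0.972 to 1.80), an interval that includes 1. The other 9 deciles gave 32.1 per Mb against 18.7, a ratio of 1.72 (1.57 to 1.89). Width followed the order as well, but only in its earlier part. Over all regions with an FDR of 1 the median was 1000 bp in the first decile, 600 bp in the fifth and 650 bp in the last. In the first decile the median width was 1050 bp for flanking regions and 1000 bp for those beyond 100 kb, and in the second 900 and 850 bp. From the third decile to the last the medians of both classes differed by at most 50 bp, in either direction. The upper quartile differed more, at 1300 bp in the flanks and 1050 bp beyond 100 kb in the first decile, and 1025 and 950 bp in the second. The flanks thus held more early lines than the genome beyond 100 kb. Within the first 2 deciles their regions were wider mainly at the upper quartile. The medians there differed by 1 step of the 50 bp grid, as in some later deciles. Width by decile was not compared with the zone from 10 to 20 kb, and the peaks with most regions were not taken out.

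A minority of the peaks had a region at 1 to 10 kb, and strong and weak peaks differed little in this. Of the 856 MACS peaks, 370 (43.2%, 95% Wilson interval 39.9 to 46.6%) were the nearest peak of at least 1 region. A single region was found at 246 peaks, 2 at 84 and 3 at 29, while 78 of the 370 had regions on both sides. The score of the peaks with a region had a median of 180.0, and that of 460 peaks without one was 170.4. These make up 830 peaks that either had a region or ended at least 10 kb before the last CCAT position of their chromosome. Peaks past that limit were left out only if they had no region, which can raise the shares that follow. Of the 830, 44.6% had a region. With the 830 split by score into 4 parts, the share was 42.8% in the weakest part (36.3 to 49.6%), then 44.0 and 42.0%, and 49.5% in the strongest (42.8 to 56.3%). These intervals overlap. Grouped by the FDR of the CCAT region on the peak, the 830 gave a similar order. The share ran from 49.8% at an FDR of at most 5% (43.6 to 56.0%) to 39.2% at an FDR of 1 (31.3 to 47.8%).

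Among single peaks with a score above 250, a flanking region was found at 20 of 53 narrower than 250 bp (37.7%, 95% Wilson interval 25.9 to 51.2%) and at 118 of 225 wider ones (52.4%, 45.9 to 58.9%), again with intervals that overlap. Of the peaks in clusters of 3 or more within 5 kb, 6 of 51 had one (11.8%, 5.51 to 23.4%). These peaks have less flank of their own by the rule, and they share loci, so the share is not comparable with that of single peaks.

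Of the 8 MACS peaks at the highest score, 3100, 5 had flanking regions, 8 in all, and all 8 had an FDR of 1 and widths between 550 and 950 bp. The peak on chromosome 11 (87968886 to 87969599) had 3, at 3535 bp on one side and at 3051 and 8651 bp on the other. The peak on chromosome 7 (74606847 to 74607531) had 1 on each side, at 1546 and 9269 bp. Peaks on chromosomes 2 (158348656 to 158349330), 8 (81638274 to 81639055) and 16 (25220473 to 25221203) had 1 each, at 3555, 7373 and 3497 bp. None of the 8 regions stood in the first decile of the list: the earliest was at line 12268 of 55098. The peak on chromosome 10 and both on chromosome 17 were the nearest peak of none. For 1 of the latter (13744631 to 13746053) this follows from the assignment to the nearest peak, since the 4 regions on its lower side were counted for the adjoining peak of its pair, and 3 of those 4 stood in the first decile. In the strongest of the 4 parts by score as a whole, 28 of 152 flanking regions stood in the first decile, against 98 of 557 over all peaks. In the weakest part it was 38 of 155, and in the parts between 16 of 122 and 16 of 128. These totals include the regions with an FDR below 1.

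At the other extreme, 11 peaks with 4 or more flanking regions held 56 of the 557. Their scores had a median of 86.6, and 8 of the 11 scored 110 or less. The richest were 4 weak peaks on chromosome 1. The first (85087100 to 85087762, score 76.74) had 7 regions, 4 on the lower side and 3 on the higher, at distances from 2299 to 8849 bp. Its regions were 800 to 2350 bp wide and covered 11.1 kb. The second (85106045 to 85106559, score 79.15), in the same stretch, had 6 regions that covered 7.35 kb, 4 of them in the first decile of the list. The third (85259702 to 85260106, score 77.48) had 6 that covered 12.7 kb, among them the region with an FDR of 0.298. The fourth (87485371 to 87485923, score 77.64) had 6 with a median width of 2350 bp, which covered 14.3 kb, and 5 of these stood in the first decile. These 4 peaks had MACS scores near the lowest in the list, 70.03, yet had more CCAT regions beside them than any other peak.

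**Figure D4:**
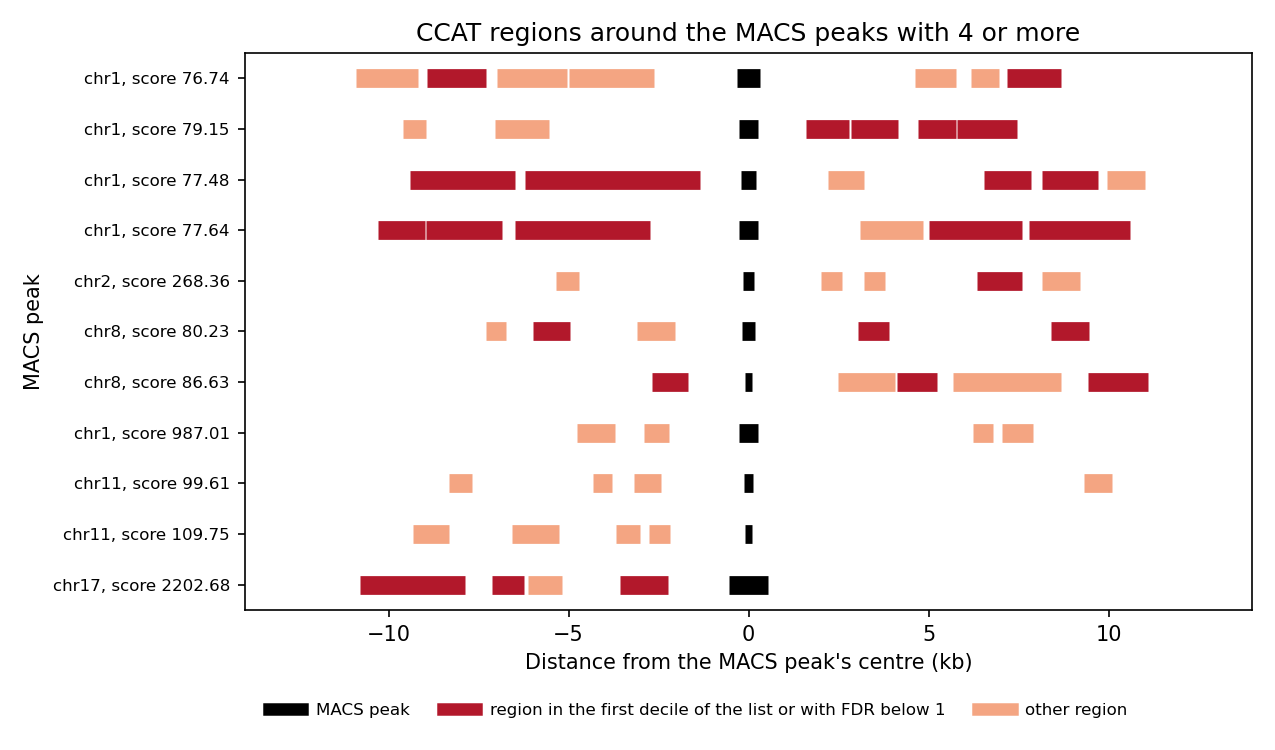
CCAT regions around the 11 MACS peaks with 4 or more flanking regions, each row a peak named by chromosome and MACS score, with the distance from the peak's centre (kb) on the horizontal axis. Black bars are MACS peaks, dark red bars flanking regions in the first decile of the list or with an FDR below 1, and light bars the other flanking regions. The 4 uppermost rows, on chromosome 1, hold 6 or 7 regions each, many of them adjoining.

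The other rich neighbourhoods lay beside weak and strong peaks. A weak peak on chromosome 8 (57977318 to 57977532, score 86.63) had 5 regions of 1000 to 3000 bp. Another on the same chromosome (19946335 to 19946673, score 80.23) had 5 of 550 to 1050 bp. At both, 3 of the 5 stood in the first decile. The strong peak on chromosome 17 (13743440 to 13744518, score 2202.68) had 4, all on its lower side, the widest of 2900 bp. It forms a pair with a peak at the highest score. On chromosome 1 a strong peak (92634785 to 92635334, score 987.01) had 2 narrow regions on each side, none of them in the first decile. A peak on chromosome 2 (167670133 to 167670459, score 268.36) had 5 regions with a median width of 650 bp. On chromosome 11 a peak (79656600 to 79656867, score 99.61) had 4 with a median of 700 bp. Another there (120214364 to 120214581, score 109.75) had 4 with a median of 825 bp.

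These 11 neighbourhoods carried part of the pattern. Of their 56 regions, 38 (67.9%) were 1000 bp or wider, 31 lay within 500 bp of another flanking region, and 24 of the 55 with an FDR of 1 stood in the first decile (43.6%). At the 359 other peaks, 94 of 501 regions were that wide (18.8%, 95% Wilson interval 15.6 to 22.4%), and 74 of 495 stood in the first decile (14.9%, 12.1 to 18.4%). Without the 11 peaks the density ratio to the genome beyond 100 kb was 1.75 (1.60 to 1.91). A position listed more than once, which was the case for 9 of the 56, was found for 5 of the other 501. Over all 557 the share of such positions was 2.51%, against 0.306% beyond 100 kb and 4.74% on a peak. At 10 to 20 kb it was 2.68%, at 20 to 50 kb 1.39%, at 50 to 100 kb 1.43% and under 1 kb 9.09%. The share was thus not particular to the flanks. The 11 were chosen by their number of regions after the data were seen, so these values only show what they contribute.

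CCAT regions lay close to one another throughout the list, with or without a MACS peak. To set MACS peaks beside ordinary regions, another CCAT region was looked for at 1 to 10 kb from each CCAT region. It was found for 386 of 781 regions on a peak (49.4%, 95% Wilson interval 45.9 to 52.9%) and for 18815 of 46697 regions over 100 kb from any peak (40.3%, 39.8 to 40.7%). Among the latter, 2611 of 5486 regions of 1000 bp or more had one (47.6%, 46.3 to 48.9%), as did 76 of 132 with an FDR below 1 (57.6%, 49.0 to 65.7%). Of the 781, 779 are that wide. The share around MACS peaks was therefore above that around the average distant region, while its interval overlapped those of the wide distant regions and of the distant regions with an FDR below 1. On a peak with an FDR of at most 5% the share was 53.8% (47.4 to 60.1%), and on a peak with an FDR of 1 it was 45.2% (36.7 to 53.9%).

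By chromosome, flanking regions numbered from 13 on chromosomes 12 and 14 to 64 on chromosome 1. In each of the 19 chromosomes the density at 1 to 10 kb was above that beyond 100 kb. The ratio ran from 1.15 on chromosome 12 to 3.50 on chromosome 1 with a median of 1.63, and its 95% interval lay above 1 in 9 of them. Chromosome 1 held 5 of the 11 rich peaks, and without these its ratio was 2.20 (1.53 to 3.07) in place of 3.50 (2.69 to 4.48). Chromosome 19 had none of them and a ratio of 2.79 (1.84 to 4.05), from 28 regions at 18 of its 27 peaks. The comparison with the zone from 10 to 100 kb was mixed, with a higher density at 1 to 10 kb on 12 of 19 chromosomes and a median ratio of 1.15 (range 0.804 to 2.06).

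**Figure D5:**
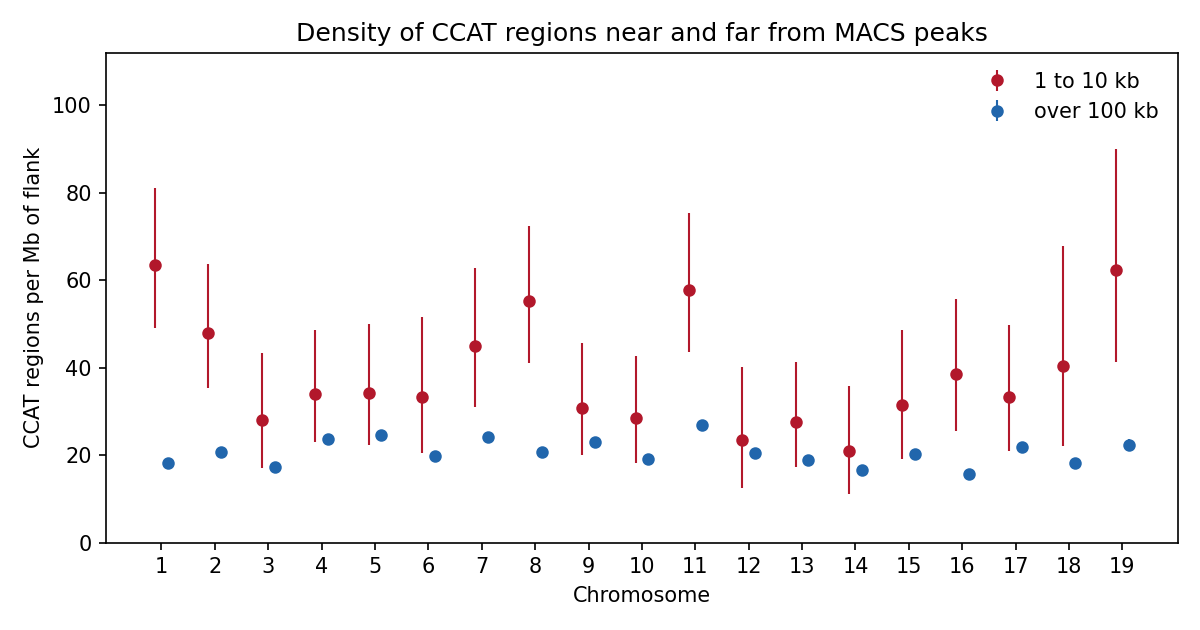
CCAT regions per Mb of flank by chromosome, at 1 to 10 kb from a MACS peak (red) and over 100 kb away (blue), with 95% Poisson intervals. The red point lies above the blue in all 19 chromosomes, from 20.9 against 16.7 per Mb on chromosome 14 to 63.6 against 18.2 on chromosome 1.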

How the data were processed

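Per the submitters' processing notes, BWA, MACS 1.4.1 and the assembly mm9 were used. CCAT is named by its file, with version and settings not given in the sources used here. Per file, the authors deposited a MACS score per peak and a CCAT false discovery rate per region (a q-value in 14 levels, read as such from its range and order). Neither list has read counts. Repeated CCAT positions were used once, at the first line. Distances are the bases between edges. Densities divide regions by the length of sequence at that distance. Outside the outermost peaks this length ends at the first and last called CCAT position, while gaps between peaks count in full. Of the 856 peaks, 830 could be flanked by the CCAT list, and gaps beside the others were not left out. Shares have Wilson, densities Poisson and ratios exact binomial 95% intervals. The limit for the count of 0 is not a Wilson limit and takes 3 counts as the highest. Members and lists were chosen with earlier results of these data known. Regions named were those with an FDR below 1, the 6 widest, the 6 nearest, those of the 4 peaks with most regions and of the peaks at the highest score; further peaks with 4 or more regions were named after their values were seen. The distance code differed from a direct search in 0 of 600 simulated regions. Alternatives were other windows, reference peaks and handling of repeated or adjoining regions. Sequence and gene positions needed an mm9 genome and were not analysed here. Calculations ran in Python 3.11.15 (pandas 2.3.3, numpy 2.4.6, scipy 1.17.1), and plots in matplotlib 3.10.9.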

Additional observations from a re-analysis of the deposited data

How the results depend on the processing

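The median width stayed at 750 bp under every alternative run. By construction, the number of flanking regions moved with the window and the reference list, to 254 at 1 to 5 kb, 1117 at 1 to 20 kb and 292 around the MACS peaks with a score above the median. The number of peaks with such a region was then 200 at 1 to 5 kb, 545 of 856 at 1 to 20 kb, and so a majority, and 198 among the stronger peaks. The share with an FDR below 1 was 2.74% (8 of 292) around the stronger peaks, where regions on the weaker peaks can count as flanking. Distances between midpoints, and other handling of repeated, adjoining or clustered regions and of chromosome starts, left the number of regions between 490 and 574 and this share between 0.898 and 1.57%. The density ratio to the genome beyond 100 kb, 1.91, was 1.75 without the 11 peaks with 4 or more regions, 3.56 in the first decile of the list, 1.72 in the others and 1.76 with regions within 500 bp merged. All alternatives for this ratio were chosen after the data were seen. No paired analysis was possible because the ChIP and the extract are single libraries, and for the same reason neither could be omitted. The lists do not give the depth, and what it limits was not tested.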

Other observations

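The 44 CCAT regions under 1 kb from a MACS peak, which overlap no peak and were not counted as flanking, were 800 bp wide at the median, and an FDR below 1 was given to 2. Their density was 27.2 per Mb (95% Poisson interval 19.8 to 36.6), below the 39.6 per Mb at 1 to 10 kb. The CCAT regions on the peaks, with a median width of 1200 bp, reach into this zone, and their length was not taken out of it. Their part in the lower density was not tested.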
